A study of Mus musculus with 2 samples.

Results

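The cells described here are 61 macrophages from tumours of the PyMT-N line. Of these, 60 carried the messenger RNA of matrix metalloproteinase 12 (Mmp12) and 1 carried that of cathepsin K (Ctsk). The 61 cells were chosen from 12496 cell barcodes in the series. The rule took PyMT-N barcodes that held 200 or more genes and whose unique molecular identifiers (UMIs, each standing for 1 captured RNA molecule) were mitochondrial in no more than 10%. It asked for at least 20 C1qa, C1qb and C1qc UMIs per 10000, under 50 S100a8 and S100a9 UMIs per 10000, no Cd3d, Cd3e or Cd3g UMI, and under 3 UMIs of Mki67, Top2a, Birc5 and Cdk1. These gates left 566 of the 5020 PyMT-N barcodes, and the members were the 61 with at least 2 UMIs of Ctsk and Mmp12 together. They were set against the 475 cells of the same gates with 0 such UMIs, called negative macrophages. Because measured values chose the members, their Mmp12 and Ctsk levels and the levels of the gate genes are given as a description.

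The study injected tumour cells of 2 lines, PyMT-N and PyMT-M, into the mammary gland of mice and collected the tumours after 4 weeks, at 0.7 to 1 cm in diameter. Living CD45+ cells, which are leukocytes, were sorted from each as DAPI-negative cells, although the labels call the cell type tumour, and were profiled with the 10x Genomics 5′ assay. Each line gave 1 library, so line and library cannot be told apart, and no test over replicates was possible. The labels do not give the mouse strain, the number of animals or the meaning of the letters N and M, and they name no treatment. All intervals below are exact 95% intervals that cover counting error only. The PyMT-N library held 14907736 UMIs with a median of 1955 per barcode, and the PyMT-M library held 43977988 UMIs in 7476 barcodes with a median of 5069.5. The libraries shared 60 barcode sequences, of which 1 belonged to a member, and 0 members shared theirs with a gated PyMT-M macrophage.

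Mmp12, also called macrophage elastase, is a secreted protease of macrophages that cleaves elastin and other matrix proteins. Ctsk encodes cathepsin K, a cysteine protease best known from osteoclasts, the multinucleated cells that resorb bone. C1qa, C1qb and C1qc encode the chains of complement C1q, which tissue and tumour macrophages make. In tumours, macrophages are found in both well and poorly perfused areas, and low oxygen is known to raise transcripts for glycolysis, angiogenic factors and lipid storage in many cell types.

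Mmp12 and Mmp13, the second matrix metalloproteinase gene at a higher level in these cells, lie on the plus strand of chromosome 9. In build GRCm38 Mmp12 spans 7344381 to 7369499 and Mmp13, which encodes collagenase 3, spans 7272514 to 7283331. The rule chose the cells by Mmp12 and Ctsk, so the Mmp12 level is not a finding. Mmp13 was outside the rule and was found in 42.6% of members and 11.6% of negative macrophages. The upstream sequences of Mmp12 and Mmp13 are shown as a description. Each run holds the 250 bases before a RefSeq start site on GRCm38.p6, plus strand, and capitals mark the letters TGANTCA, the motif bound by AP-1 factors. The first Mmp12 start site has the window chr9:7344147-7344396, of which the last 16 bases lie in an exon of the GENCODE transcript. The second has the window chr9:7347124-7347373, within the first intron of the longer transcript. The Mmp13 window is chr9:7272264-7272513.
Mmp12 start site 1: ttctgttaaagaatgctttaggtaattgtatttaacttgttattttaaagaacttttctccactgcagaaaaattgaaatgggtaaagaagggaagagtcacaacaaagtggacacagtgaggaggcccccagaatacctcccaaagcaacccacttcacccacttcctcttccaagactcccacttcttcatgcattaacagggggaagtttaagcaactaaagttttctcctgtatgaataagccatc
Mmp12 start site 2: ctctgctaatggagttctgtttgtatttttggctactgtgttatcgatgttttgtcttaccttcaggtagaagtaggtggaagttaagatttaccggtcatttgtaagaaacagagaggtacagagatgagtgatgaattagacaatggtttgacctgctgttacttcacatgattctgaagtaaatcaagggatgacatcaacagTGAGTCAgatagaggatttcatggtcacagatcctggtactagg
Mmp13 start site 1: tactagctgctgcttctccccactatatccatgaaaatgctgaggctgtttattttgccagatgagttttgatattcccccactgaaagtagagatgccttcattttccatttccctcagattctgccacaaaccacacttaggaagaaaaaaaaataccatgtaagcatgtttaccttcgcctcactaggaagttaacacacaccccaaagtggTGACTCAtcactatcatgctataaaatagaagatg
The motif began 44 bases before the second Mmp12 start site and 35 bases before the Mmp13 start site, and the window of the first Mmp12 site had no match. Searched on both strands, TGANTCA occurred in 6.75% of 32851 mouse promoter windows of this length (2217). None of the 3 windows held ACGTG, the core of the hypoxia response element, which occurred in 16.6% of windows (5444). A match describes the letters of the window and is not a measured binding site.

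The label names Ctsk first, but the gated cells hardly contained it. Mmp12 accounted for 705 UMIs in 60 of the 61 members, with a median of 6 and a maximum of 61 per cell, and the 5 cells with most Mmp12 held 33.2% of them. This was 1951 counts per 1000000 UMIs (CPM). Ctsk accounted for 30 UMIs, all in 1 member, so the cells are called Mmp12-positive macrophages here. No member had both transcripts, and a comparison of Ctsk-carrying with Mmp12-carrying members, which would have set 1 cell against 60, was not made. Mmp12 spans a stretch that Mmp1b overlaps on the minus strand at chromosome 9, 7368239 to 7388047, but Mmp1b had 0 UMIs over all filtered PyMT-N cells.

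Ctsk was abundant elsewhere in the PyMT-N library. It had 930 UMIs over all filtered PyMT-N cells, 915 of them in 7 cells with at least 2, and 6 of these 7 cells lay outside the gate because their C1q level was too low. In 5 of these 6 cells Ctsk reached 488, 181, 135, 48 and 31 UMIs. Acp5, the tartrate-resistant acid phosphatase of osteoclasts, had 490, 236, 343, 49 and 166 UMIs in the same cells, and Atp6v0d2, a subunit of the vacuolar proton pump that osteoclasts use, had 10, 21, 13, 10 and 8. Between 10 and 15 of 18 osteoclast-type genes were detected in each of these 5 cells, with 0 of 20 fibroblast genes and 0 Mmp12 UMIs. The sixth cell outside the gate had 2 Ctsk UMIs together with 19 of 20 fibroblast genes, among them Mgp with 306 UMIs. The member with Ctsk had 30 Ctsk, 23 Acp5, 559 Apoe and 246 Lyz2 UMIs, and 4 of 18 osteoclast-type genes. Mmp12, in contrast, lay mostly within the gate: 60 of the 93 PyMT-N cells with at least 2 Mmp12 UMIs passed it.

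The macrophage identity of the members was checked against genes the rule did not use. Cd68, a lysosomal glycoprotein of macrophages, was detected in 95.1% of the Mmp12-positive and 76.2% of the negative cells. Lyz2, which encodes lysozyme, was detected in 96.7% and 96.8%, and Adgre1, which encodes the macrophage antigen F4/80, in 62.3% and 48.6%. Csf1r, the receptor for the macrophage growth factor CSF1, was detected in fewer positive cells, 60.7% against 75.6%, as was Fcgr1, the high-affinity IgG receptor, with 27.9% against 39.8%. Over all 13 pan-macrophage genes the summed level was 185 per 10000 UMIs in the positive and 191 in the negative cells, and 0 of the 13 differed 2-fold. Apoe and Lyz2 gave 3340 and 1773 of the 6682 UMIs of this list in the positive cells. The median cell had 125 per 10000 in the positive and 149 in the negative group, and 27 of 61 members lay above the negative median.

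The positive cells were deeper than the negative ones, and the share of cells with a transcript after thinning to 2000 UMIs is given for some of the genes below. Their median was 5557 UMIs and 1607 genes per cell, against 4135 UMIs and 1431 genes in the negative cells. Mitochondrial transcripts made up 2.13% of UMIs in the positive and 2.80% in the negative cells. The median C1q level was 90.4 per 10000 in the positive and 117 in the negative cells, both far above the gate. Scrublet, a caller of droplets with more than 1 cell, ranked 2 positive and 13 negative cells among its 202 highest-scoring barcodes.

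Mmp12-positive cells formed a larger share of C1q macrophages in PyMT-N than in PyMT-M. The share was 10.8% in PyMT-N (61 of 566, exact binomial interval 8.34 to 13.6%) and 0.577% in PyMT-M (29 of 5022, 0.387 to 0.828%). Among cells with at least 4000 UMIs, whose median depths were 6736 in PyMT-N and 6452 in PyMT-M, the shares were 13.7% (41 of 300) and 0.758% (24 of 3165). With each cell thinned to 2000 UMIs, which left out 131 and 706 shallower gated cells, 12.2% of PyMT-N cells (53 of 435) and 0.463% of PyMT-M cells (20 of 4316) kept at least 1 Mmp12 or Ctsk UMI. These 3 counts are cuts of the same cells on the genes that the rule used, so they are given as a description. The intervals cover counting error only, and the gap is a difference between 2 libraries.

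Mmp12 was found in lower shares of the PyMT-N cells of other gates. Free RNA in the droplets was not measured, and in these gates it cannot be told apart from the cells' own transcripts. At least 1 Mmp12 UMI was found in 89 of 566 gated PyMT-N macrophages (15.7%), against 1 of 2815 PyMT-N cells of a neutrophil gate (0.0355%, interval 0.000899 to 0.198%). The neutrophil gate took cells with at least 50 S100a8 and S100a9 UMIs and under 5 C1q UMIs per 10000, and its median depth was 1777 UMIs, against 4330.5 for the gated macrophages. In a T cell gate, at a median of 3118 UMIs, 1 of 178 cells had Mmp12. In a monocyte gate of low C1q and at least 3 Ly6c2 and Ccr2 UMIs, at a median of 6090 UMIs, 9 of 291 cells had it (3.09%, interval 1.42 to 5.79%).

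**Figure D1:**
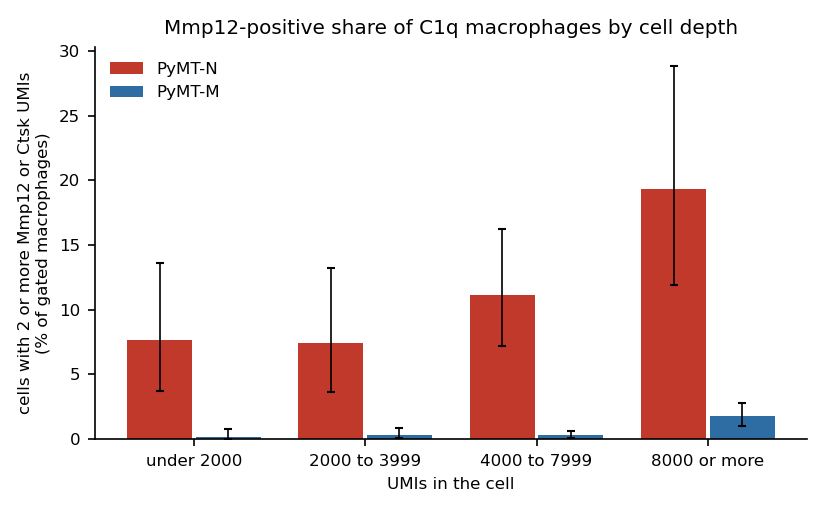
Share of gated C1q macrophages with at least 2 Mmp12 and Ctsk UMIs (y axis, percent) by the cell's UMIs (x axis) in PyMT-N (red) and PyMT-M (blue); bars are 1 library each and lines are exact binomial 95% intervals. The PyMT-N share was 7.63, 7.41, 11.1 and 19.4% from the shallowest to the deepest class, and the PyMT-M share was 0.142, 0.348, 0.281 and 1.75%.

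The share was higher in the deepest cells of both lines. In PyMT-N it was 7.63% under 2000 UMIs (10 of 131), 7.41% from 2000 to under 4000 (10 of 135), 11.1% from 4000 to under 8000 (23 of 207) and 19.4% at 8000 or more (18 of 93). In PyMT-M the same classes had 0.142% (1 of 706), 0.348% (4 of 1151), 0.281% (6 of 2138) and 1.75% (18 of 1027). The PyMT-N share was the higher one in each of the 4 depth classes, as the plot of the share by depth shows. The single library of each line leaves the spread between tumours of a line unknown.

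Against the negative macrophages of the same library, the Mmp12-positive cells had higher levels of hypoxia and glycolysis genes, of a pair of further metalloproteinases, of galectin 3, of lipid-handling genes and of ferritin. They had lower levels of alternative-activation, monocyte and inflammatory chemokine genes and of MHC class II. UMIs were summed over the cells of each group, 361315 in the positive and 2244115 in the negative cells, and compared as the log2 ratio of CPM with 10 CPM added to both. The interval beside a ratio is that of the plain ratio with nothing added, so the ratio of a gene at a low level can lie outside it. Of 4939 genes with at least 50 UMIs, 98 were at least 2-fold higher (1.98%) and 194 at least 2-fold lower (3.93%) in positive cells. The median ratio of all tested genes was -0.18, and with this median set to 0 the share of higher among all such genes was 57.3%, in place of 33.6%. Both groups came from 1 library, so these are sizes without a test. With the 435 cells of at least 2000 UMIs thinned to that depth and split at 1 in place of 2 Mmp12 and Ctsk UMIs (53 and 382 cells), 60 of 2056 tested genes were higher and 191 lower.

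Mmp13 had the highest ratio among the 15 named genes at a higher level. It stood at 290.6 CPM in Mmp12-positive and 40.6 CPM in negative cells of PyMT-N, and at 23.7 CPM in Mmp12-positive and 9.47 CPM in negative cells of PyMT-M. The PyMT-N ratio was 2.57 (interval 2.42 to 3.26), and the transcript was found in 42.6% of positive and 11.6% of negative cells, or 31.4% and 6.67% after thinning to 2000 UMIs. Adam8, a membrane metalloprotease of leukocytes, was at 213 CPM in positive and 41.4 CPM in negative cells, a ratio of 2.12 (1.91 to 2.81). Among the 10 measured members of the metalloproteinase and inhibitor list outside the rule, these were the 2 at least 2-fold higher, and 0 were 2-fold lower. Mmp14, the membrane-type collagenase, was at 199 CPM in positive and 145 CPM in negative cells, and Timp2, an inhibitor of metalloproteinases, had a ratio of 0.26 (-0.03 to 0.56). The median of this list was 0.05, beside -0.17 for all 7632 genes with at least 20 UMIs, of which 1.76% were 2-fold higher and 3.89% 2-fold lower.

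Hypoxia genes were the list with the highest median. In Mmp12-positive cells 14 of its 17 measured genes were 2-fold higher or more and 0 were 2-fold lower, with a median ratio of 1.46. The summed level was 51.3 per 10000 UMIs in positive cells (49.0 to 53.7) and 16.8 in negative cells (16.3 to 17.4), and 55 of the 61 members lay above the median negative cell. Hilpda, which coats lipid droplets and blocks their breakdown, stood at 797 CPM in positive and 138 CPM in negative cells, a ratio of 2.45 (2.30 to 2.77). It was found in 63.9% of positive and 18.1% of negative cells. After thinning to 2000 UMIs, in 51 positive and 360 negative cells, it was found in 58.8% and 13.3%, so the gap remained at equal depth.

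The other hypoxia genes spanned secreted factors, mitophagy and glucose uptake. Vegfa, the vascular growth factor, was at 174 CPM in positive and 26.3 CPM in negative cells, a ratio of 2.34 (2.19 to 3.27). Ankrd37, a hypoxia-induced ankyrin repeat gene, had a ratio of 1.82 (1.56 to 2.60) and Bnip3, a receptor for the removal of mitochondria, one of 1.65 (1.44 to 2.0). Mif, a cytokine of macrophages, was at 2269 CPM in positive and 817 CPM in negative cells, a ratio of 1.46 (1.35 to 1.59). It gave 820 of the 1853 UMIs of the hypoxia list in positive cells and 1834 of 3780 in negative cells, so the summed level rests largely on it. Ndrg1, a stress-induced gene, had a ratio of 1.82 and Slc2a1, the glucose transporter GLUT1, one of 1.36. Adm, which encodes the vasodilator adrenomedullin, had a ratio of 1.95 on 16 UMIs, of which 68.8% came from 1 cell.

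Glycolysis genes were higher as a group. All 18 measured members had a ratio above 0, 6 of them were at least 2-fold higher, and the median was 0.88. The summed level was 140 per 10000 UMIs in positive and 68.9 in negative cells, and 55 of 61 members lay above the median negative cell. Aldoa, the aldolase of glycolysis, was at 1990 CPM in positive and 711 CPM in negative cells, a ratio of 1.47 (1.36 to 1.61). Pgk1, phosphoglycerate kinase, was at 911 CPM in positive and 326 CPM in negative cells, and Gapdh at 5101 and 2727 CPM. Oxidative phosphorylation genes had a median ratio of -0.26, with 0 of 30 members 2-fold higher and 2 lower, one of them Ndufa4 at -1.12 (-1.49 to -0.83).

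**Figure D2:**
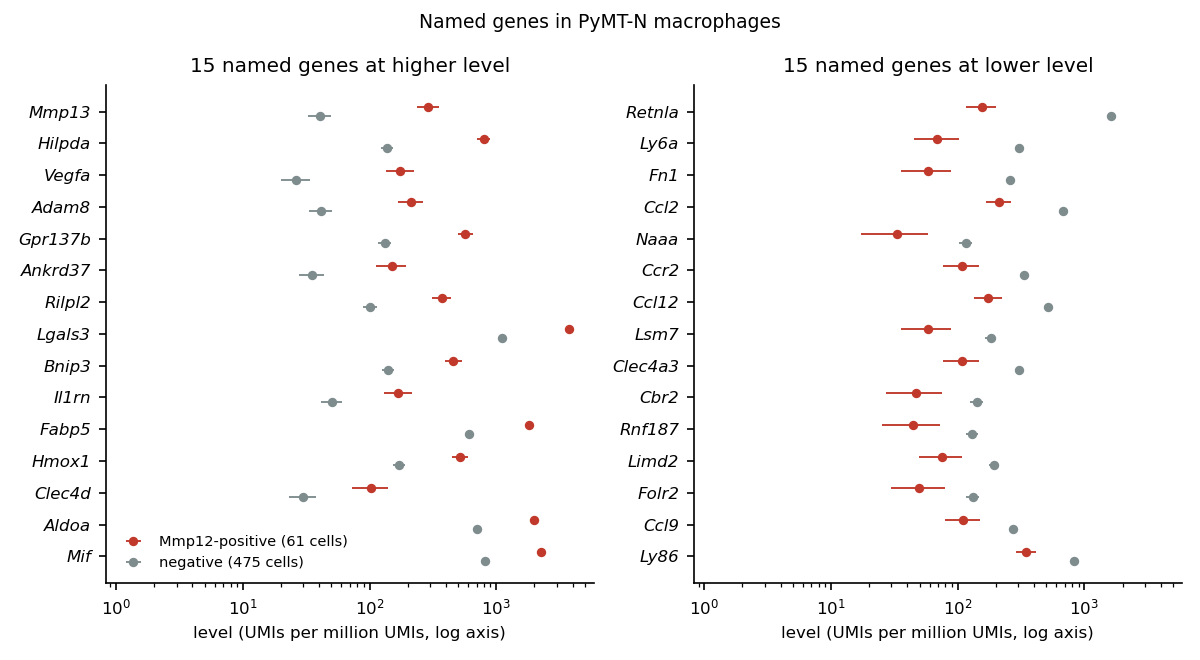
Level of the 15 named genes at a higher and the 15 at a lower level (x axis, CPM, log scale) in Mmp12-positive (red, 61 cells) and negative (grey, 475 cells) PyMT-N macrophages; points are levels of 1 library and lines are exact Poisson 95% intervals. Lgals3 lay at 3731 in positive and 1117 in negative cells, and Retnla at 155 in positive and 1629 in negative cells.

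Galectin 3 and fatty acid binding were among the most abundant differences. Lgals3, which encodes galectin 3, a carbohydrate-binding protein of activated macrophages, was at 3731 CPM in positive and 1117 CPM in negative cells, a ratio of 1.73 (1.64 to 1.84). Per cell its median was 32.4 per 10000 UMIs in positive cells (0 to 185) and 6.79 in negative cells (0 to 318), so the groups overlapped, and 57 of 61 members lay above the negative median. After thinning it was found in 94.1% of positive and 69.7% of negative cells. Fabp5, a fatty acid binding protein, was at 1810 CPM in positive and 605 CPM in negative cells, and 52 members lay above the negative median. Gpr137b, a lysosomal membrane protein, was at 570 CPM in positive and 132 CPM in negative cells, and Rilpl2, a regulator of vesicle transport, at 371 and 101 CPM.

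Lipid-associated macrophage genes had a median ratio of 0.58, and 6 of 18 were at least 2-fold higher with 0 lower. Gpnmb, a transmembrane glycoprotein of lipid-laden macrophages and osteoclasts, was at 219 CPM in positive and 20.5 CPM in negative cells, a ratio of 2.91 (2.87 to 3.97). It was found in 29.5% of positive and 3.16% of negative cells, or 27.5% and 2.5% after thinning, and 1 cell held 31.6% of its UMIs in the positive group. Spp1, which encodes osteopontin, was at 783 CPM in positive and 278 CPM in negative cells, and Plin2, a coat protein of lipid droplets, at 512 and 221 CPM. Cd36, the scavenger receptor for fatty acids and oxidised lipoprotein, was at 72.0 CPM in positive and 13.8 CPM in negative cells. Apoe, the most abundant member and the apolipoprotein of lipid export, was at nearly equal levels, 9244 CPM in positive and 9206 CPM in negative cells, a ratio of 0.01 (-0.05 to 0.06), and of -0.23 without the member that carried Ctsk. Trem2, the lipid-sensing receptor of these macrophages, had a ratio of 0.24 (-0.02 to 0.50).

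None of 14 cathepsin and legumain genes was 2-fold higher or lower, and their summed level was 164 per 10000 UMIs in positive and 152 in negative cells. Within the list Ctsd, the main aspartic protease of lysosomes, was at 1409 CPM in positive and 773 CPM in negative cells, and Ctsl, a cysteine protease, at 487 and 247 CPM. Ctsb, another cysteine protease and the most abundant of them, was at 4365 CPM in positive and 3124 CPM in negative cells. Of 36 lysosome and proton pump genes 1 was 2-fold higher and 0 lower. Of 11 measured osteoclast-type genes 1 was 2-fold higher, Atp6v0d2 with a ratio of 2.47 on 80.3 CPM in positive and 6.24 CPM in negative cells, found in 26.2% and 1.68% of cells. Acp5 was at 620 CPM in positive and 401 CPM in negative cells, a ratio of 0.62 (0.41 to 0.84).

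Ferritin took up a larger part of the RNA in Mmp12-positive cells. Fth1, the ferritin heavy chain, which stores iron, was at 44266 CPM in positive and 19682 CPM in negative cells, and Ftl1, the light chain, at 39306 and 21701 CPM. The pair made up 8.36% of the UMIs of positive and 4.14% of those of negative cells. Hmox1, haem oxygenase, which frees iron from haem, was at 518 CPM in positive and 171 CPM in negative cells, a ratio of 1.54 (1.34 to 1.85). The iron, haem and metallothionein list as a whole had no common direction. Fth1 and Hmox1 were the 2 of its 17 members that were 2-fold higher, 2 were lower and the median was -0.03, with Mt1, a metallothionein, at -0.05 (-0.19 to 0.09). The remaining named genes were Il1rn, the interleukin 1 receptor antagonist, at 169 CPM in positive and 50.4 CPM in negative cells, and Clec4d, a C-type lectin receptor, at 102 and 29.9 CPM.

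**Figure D3:**
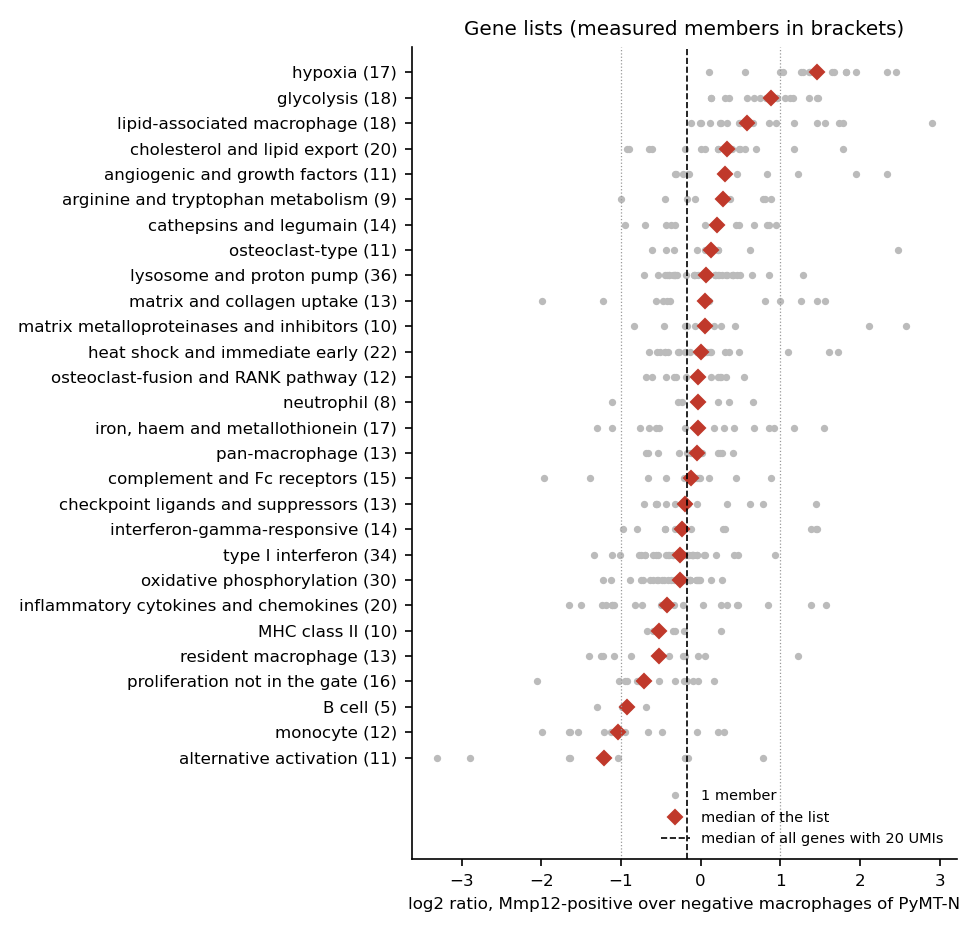
Log2 ratio of Mmp12-positive over negative PyMT-N macrophages (x axis) for the measured members (grey points) and the median (red diamond) of the 28 gene lists with at least 5 measured members; the dashed line is the median of all genes with at least 20 UMIs and dotted lines mark 2-fold. Among these lists hypoxia (1.46) and glycolysis (0.88) had the highest medians, and monocyte (-1.03) and alternative-activation genes (-1.21) the lowest.

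Alternative-activation genes had the lowest median of the 28 lists with at least 5 measured genes, -1.21, with 7 of 11 members at least 2-fold lower and 0 higher. Their summed level was 10.4 per 10000 UMIs in positive and 28.9 in negative cells. The median cell had 5.80 in the positive and 9.41 in the negative group, and 20 of 61 members lay above the negative median. Retnla, which encodes the secreted protein RELM-alpha of macrophages exposed to interleukin 4, was at 155 CPM in positive and 1629 CPM in negative cells of PyMT-N, a ratio of -3.31 (-3.80 to -3.01). All 56 Retnla UMIs of the positive cells came from 1 of 61 cells, so the positive group without that cell had 0 Retnla UMIs, while 55 of 475 negative cells carried the transcript. In the negative cells Retnla gave 3656 of the 6482 UMIs of the list. Ccl24, a chemokine for eosinophils, had 1 UMI in positive and 190 UMIs in negative cells. Mrc1, the mannose receptor, was at 102 CPM in positive and 253 CPM in negative cells. Arg1, the arginine-degrading enzyme that is also counted as an alternative-activation gene, was higher, at 133 CPM in positive and 73.1 CPM in negative cells, but 1 cell held 50% of its UMIs in the positive group. Without cells carrying at least 2 UMIs of the neutrophil list its ratio was -2.04, in place of 0.78.

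Monocyte genes had a median ratio of -1.03, with 6 of 12 members 2-fold lower and 0 higher, and a summed level of 12.9 per 10000 UMIs in positive and 21.8 in negative cells. Ccr2, the chemokine receptor with which monocytes enter tissue, was at 108 CPM in positive and 332 CPM in negative cells, a ratio of -1.53 (-2.12 to -1.15), and was found in 23.0% and 42.1% of cells, or 13.7% and 35.3% after thinning. Cx3cr1, the fractalkine receptor, was at 130 CPM in positive and 316 CPM in negative cells. Gngt2, the list member with the highest level in positive cells, went the other way. It was at 587 CPM in positive and 477 CPM in negative cells, a ratio of 0.29 (0.08 to 0.51), and was found in 83.6% and 69.3% of cells. Fn1, which encodes the matrix protein fibronectin, was at 58.1 CPM in positive and 260 CPM in negative cells, and Ly6a, a surface antigen induced by interferon, at 69.2 and 307 CPM. Resident macrophage genes were lower as well, with 4 of 13 members 2-fold lower, 1 higher and a median of -0.53. The member at a higher level was Igf1, insulin-like growth factor 1, at 263 CPM in positive and 107 CPM in negative cells. Folr2, the folate receptor of resident macrophages, had a ratio of -1.25 and Cbr2, a carbonyl reductase, one of -1.41, but 1 cell held 61.1% of the Folr2 UMIs and 88.2% of the Cbr2 UMIs of the positive group.

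Among 20 inflammatory cytokine and chemokine genes 7 were 2-fold lower and 2 higher, with a median of -0.42. Ccl2, which attracts Ccr2-carrying monocytes, was at 210 CPM in positive and 683 CPM in negative cells. Ccl12, a related mouse chemokine, was at 174 CPM in positive and 512 CPM in negative cells, and Ccl9, another mouse chemokine, at 111 and 274 CPM. Ccl6 was at 736 CPM in positive and 1691 CPM in negative cells, with 57.1% of its UMIs in the positive group from 1 cell. Cxcl16, a membrane-bound chemokine, had a ratio of 0.33 (0.13 to 0.52), and of -0.13 in the thinned cells split at 1 UMI. The other named genes at a lower level were Naaa, a lysosomal amide hydrolase, Clec4a3, a lectin receptor, Ly86, a partner of a toll-like receptor family member, Lsm7, an RNA-binding protein, Rnf187 and Limd2, with ratios of -1.54, -1.41, -1.23, -1.49, -1.36 and -1.27 in this order.

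MHC class II genes, which present antigen to CD4 T cells, were lower, with little spread between the genes of the list but a wide one between cells. The 10 measured genes had a median of -0.52, and 0 were 2-fold higher or lower. Their summed level was 210 per 10000 UMIs in positive and 305 in negative cells, and the median cell had 89.1 in the positive and 199 in the negative group. Single cells ranged from 0 to 790 in the positive and from 0 to 1642 in the negative group. Of the 61 positive cells 21 lay above the negative median. Cd74, the invariant chain, was at 11234 CPM in positive and 16210 CPM in negative cells, and H2-Aa at 3161 and 4486 CPM. Type I interferon genes had a median of -0.25, close to the median of all genes, with 3 of 34 lower and 0 higher. Their summed level was nevertheless lower, at 25.6 per 10000 UMIs in positive and 42.7 in negative cells. The median cell had 9.81 in the positive and 19.5 in the negative group, and 16 of 61 members lay above the negative median. Ifi27l2a, the interferon-induced gene with the highest level, was at 1218 CPM in positive and 2642 CPM in negative cells, a ratio of -1.11 (-1.26 to -0.98), and Bst2, which tethers virus particles, had a ratio of -0.14 (-0.43 to 0.12). Cd274, which encodes the checkpoint ligand PD-L1, was at 60.9 CPM in positive and 16.0 CPM in negative cells and was found in 27.9% and 4.63% of cells. It was the 1 of 13 checkpoint and suppressor genes that was 2-fold higher. Of 16 proliferation genes outside the gate 2 were lower, one being Stmn1, a tubulin-binding protein of cycling cells, with 4 UMIs in positive and 173 UMIs in negative cells.

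The genes at a higher level did not follow the number of Mmp12 UMIs in a simple order. Hilpda was at 138, 499, 663, 773 and 908 CPM in cells with 0, 1, 2 to 3, 4 to 9 and at least 10 Mmp12 and Ctsk UMIs, so it was higher in each class than in the one before. The intervals of neighbouring classes above 0 overlapped. Lgals3 was at 1117, 1976, 4128, 2582 and 4350 CPM in the same classes and Mmp13 at 40.6, 123, 247.5, 132 and 444 CPM, both lower at 4 to 9 UMIs than at 2 to 3. The hypoxia list was at 16.8, 34.2, 53.9, 46.4 and 53.3 per 10000 UMIs, so the classes above 1 UMI did not follow their order. Just inside the threshold, 14 cells with 2 UMIs had 999 CPM of Hilpda, 180 CPM of Mmp13 and 4866 CPM of Lgals3. Just outside it, 30 cells with 1 UMI had 499, 123 and 1976 CPM of these genes. The 1-UMI cells therefore lay between the members and the negative cells for each of these 3 genes, at a median depth of 5863 UMIs.

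**Figure D4:**
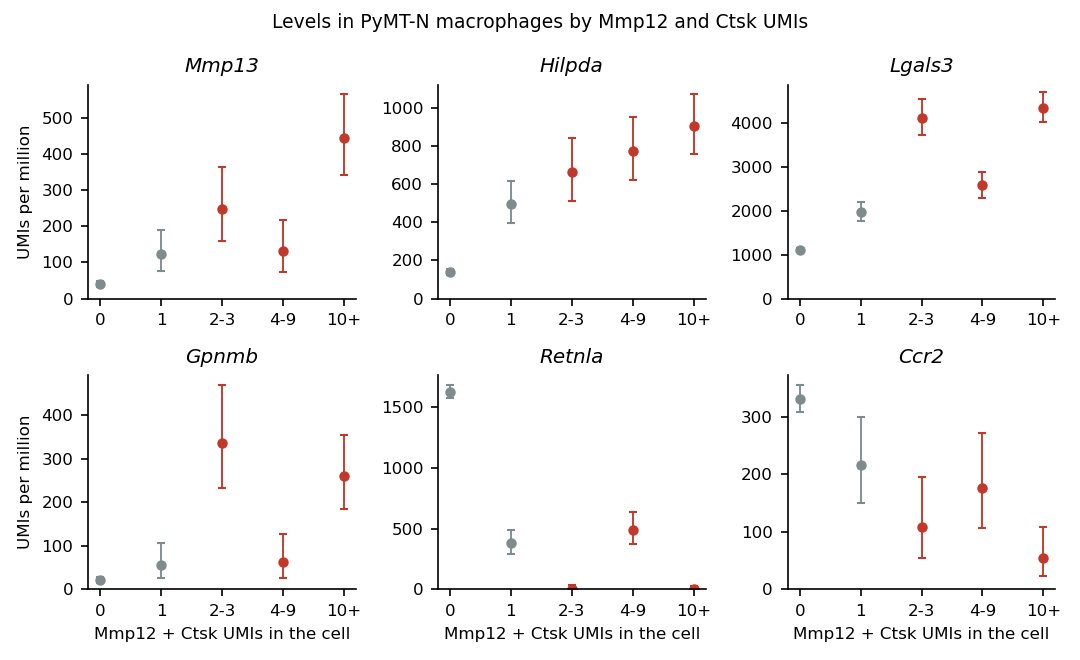
Level of 6 genes (y axis, CPM) by the Mmp12 and Ctsk UMIs in the PyMT-N macrophage (x axis); red points are the Mmp12-positive classes, grey points the cells with 0 or 1 UMI, and lines are exact Poisson 95% intervals. Ccr2 lay at 332, 215.5, 109, 176 and 54.6 from left to right, and Retnla at 1629, 382, 0, 492 and 0.

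The genes whose counts were most like those of Mmp12 over the gated PyMT-N cells were Hilpda, Adam8, Fth1, Lgals3 and Aldoa. Pearson's r over 435 cells thinned to 2000 UMIs, with 2153 genes compared, was 0.476, 0.411, 0.366, 0.366 and 0.365 for these in turn. Mmp12 was present in 52 of the thinned cells, all cells share 1 library, and r is given as a description. Of the 15 named genes at a higher level, 12 had a promoter window in the RefSeq table. TGANTCA was present upstream of 4 of them, Mmp13, Hilpda, Il1rn and Aldoa, and ACGTG upstream of 5, Hilpda, Vegfa, Ankrd37, Bnip3 and Aldoa. Of the 12 genes with a window among the 15 at a lower level, 2 held TGANTCA (Folr2 and Ccl9) and 1 held ACGTG (Lsm7). Some of these genes had more than 1 window, 18 for the higher and 17 for the lower genes, so the shares of single windows given above are no direct measure for them.

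The same gates found 29 Mmp12-positive cells among 5022 gated macrophages of PyMT-M. They held 124 Mmp12 UMIs, with a median of 3 and a maximum of 16 per cell, and 0 Ctsk UMIs. Their median depth was 9200 UMIs, against 4904 in the 4968 negative PyMT-M cells, so depth differed with the group here more than in PyMT-N, and its part in the result was not tested. Of 10509 genes 142 were at least 2-fold higher (1.35%) and 256 at least 2-fold lower (2.44%) in positive PyMT-M cells.

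Most of the genes at a higher level in PyMT-N had a ratio of the same sign in PyMT-M. This held for 14 of 15, of which 8 were at least 2-fold higher, and Rilpl2 was the exception at -0.06. Lgals3 was at 1708 CPM in positive and 510 CPM in negative PyMT-M cells, a ratio of 1.72, close to the 1.73 of PyMT-N. Adam8 (2.28), Hmox1 (1.80), Il1rn (1.74), Fabp5 (1.68), Ankrd37 (1.39), Mif (1.24) and Bnip3 (1.02) were also at least 2-fold higher. Hilpda was at 44.1 CPM in positive and 19.5 CPM in negative PyMT-M cells, a ratio of 0.88, and Mmp13 rested on 7 UMIs and Vegfa on 4. The hypoxia list had 5 of 22 members 2-fold higher with a median of 0.39, at 13.9 per 10000 UMIs in positive and 6.66 in negative PyMT-M cells. Glycolysis genes had 6 of 19 members higher with a median of 0.86, at 62.8 in positive and 32.1 per 10000 in negative cells.

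The genes at a lower level were less alike in the 2 lines. Of the 15, 9 had the same sign in PyMT-M, and 3 were 2-fold lower there, Ccl12 (-1.03), Clec4a3 (-1.14) and Cbr2 (-1.58). Another 3 were 2-fold higher. Retnla was at 5012 CPM in positive and 1340 CPM in negative PyMT-M cells, Fn1 at 942 and 184 CPM, and Ccl9 at 637 and 160 CPM. In PyMT-M 1 cell held 34.3% of the Retnla UMIs of the positive group, and 31.0% of positive and 7.45% of negative cells carried it. The alternative-activation list summed to 64.7 per 10000 UMIs in positive and 24.0 in negative PyMT-M cells, the opposite order to PyMT-N. Retnla gave 1479 of its 1910 UMIs in the positive cells. Of 16 members 5 were 2-fold higher, and the median ratio was -0.06. The median cell had 12.0 in the positive and 8.45 in the negative group. The monocyte list also had the opposite order, at 23.3 and 18.6, as did type I interferon genes, at 60.9 and 55.7. Sums of the resident macrophage, MHC class II and inflammatory cytokine and chemokine lists kept the PyMT-N order.

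**Figure D5:**
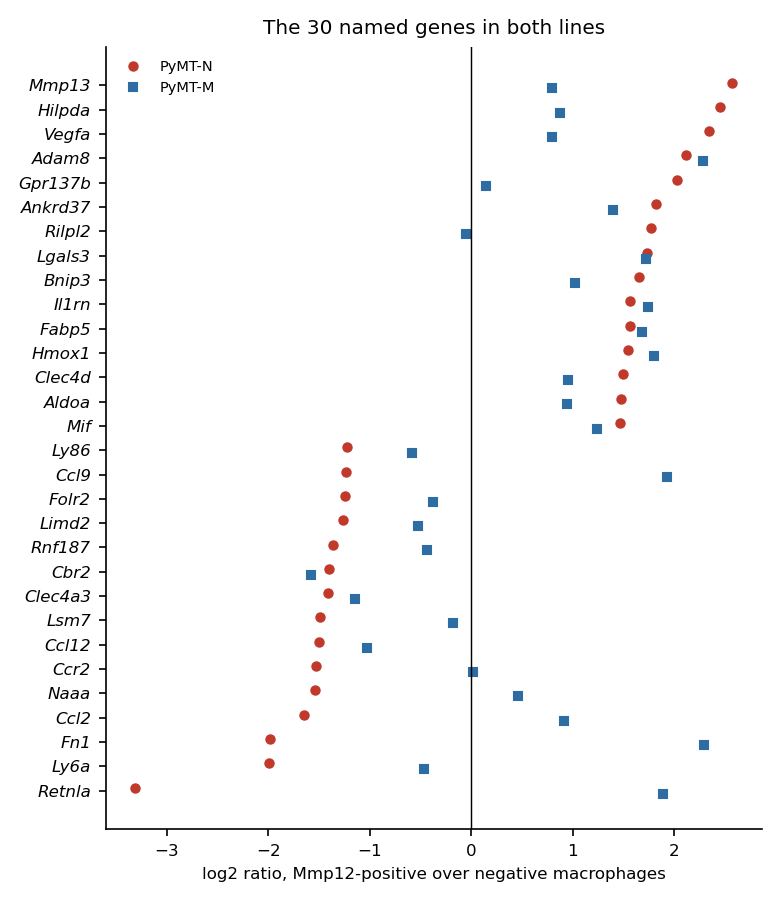
Log2 ratio of Mmp12-positive over negative macrophages (x axis) for the 30 named genes within PyMT-N (red circles, 61 and 475 cells) and within PyMT-M (blue squares, 29 and 4968 cells). Of the genes chosen in PyMT-N, 14 of 15 at a higher level kept their sign in PyMT-M, against 9 of 15 at a lower level, and Fn1 stood at -1.99 in PyMT-N and 2.30 in PyMT-M.

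Set against all gated macrophages of PyMT-M, the 61 PyMT-N cells differed in more genes. Of 10535 genes 271 were at least 2-fold higher (2.57%) and 983 at least 2-fold lower (9.33%), a comparison in which line, library and Mmp12 status change together. Hypoxia genes were 2-fold higher in 15 of 22 members with a median of 2.10, at 51.3 per 10000 UMIs in PyMT-N positive and 6.74 in PyMT-M gated cells. Part of this gap lay between the negative cells of the lines, with 16.8 per 10000 in PyMT-N and 6.66 in PyMT-M. Fabp5 was at 1810 CPM in PyMT-N positive and 114 CPM in PyMT-M gated cells, and Gapdh at 5101 and 493 CPM. Type I interferon genes were 2-fold lower in 22 of 39 members, at 25.6 per 10000 in PyMT-N positive and 55.7 in PyMT-M gated cells, and MHC class II genes in 4 of 10, at 210 and 482 per 10000. Ccl5, a chemokine for T cells, was at 8.30 CPM in PyMT-N positive and 1306 CPM in PyMT-M gated cells, and Ccl4, a chemokine of activated macrophages, at 684 and 5293 CPM. Between the Mmp12-positive cells of the 2 lines, 77 of 1592 genes were 2-fold higher (4.84%) and 147 lower (9.23%) in PyMT-N, with Hilpda at 797 CPM in the PyMT-N and 44.1 CPM in the PyMT-M cells.

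Transcripts from the lists of other cell types were present in some members. At least 2 UMIs of the neutrophil list were found in 25 of 61 positive and 110 of 475 negative cells. In the positive cells 7 of 16 neutrophil genes were at 0. The summed level was 3.29 per 10000 UMIs in positive and 2.63 in negative cells. Cxcr4, a chemokine receptor counted in this list, gave 66 of its 119 UMIs in the positive cells and was found in 44.3% of them. A cell could thus reach 2 UMIs of the list through Cxcr4 alone, and how many did so was not counted. Neutrophils of this library carried several of the hypoxia genes, with Hilpda at 1783, Mif at 2977 and Vegfa at 138 CPM in the neutrophil gate, and Mmp13 at 0.163 CPM. Without the cells that had at least 2 UMIs of the neutrophil list, 36 positive and 365 negative cells remained. In these the ratio was 2.63 for Hilpda, 1.59 for Mif, 1.97 for Vegfa and 1.91 for Mmp13. The median of the hypoxia list was 1.59. At least 2 UMIs of T and NK cell genes were found in 9 of 61 positive and 15 of 475 negative cells, with 13 of 16 such genes at 0 in the positive cells. Il7r, the interleukin 7 receptor, gave most UMIs of this list in the positive cells, at 72.0 CPM in positive and 11.6 CPM in negative cells. The whole list stood at 0.913 per 10000 UMIs in positive and 0.325 in negative cells. Without any cell that had at least 2 UMIs of fibroblast, epithelial, endothelial, B cell or T and NK cell genes, in 41 positive and 374 negative cells, the Il7r ratio was 1.08, that of Hilpda was 2.39 and the hypoxia median was 1.12. Dendritic cell genes reached 2 UMIs in 33 of 61 positive and 169 of 475 negative cells, with 9 of 15 at 0 in the positive cells, and the part of these cells in the results was not tested. Endothelial genes did so in 3 of 61 positive and 1 of 475 negative cells, epithelial genes in 2 and 10, and B cell genes in 8 and 78. At least 2 fibroblast UMIs were found in 1 of 61 positive and 4 of 475 negative cells, with 18 of 20 fibroblast genes at 0, and mast cell genes in 0 cells of both groups.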

How the data were processed

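The authors' deposited files held unnormalised counts of UMIs per gene and cell barcode, 1 matrix for each line. Cell Ranger and Seurat and the build mm10 are named per the submitters' processing notes, and the matrix headers give software version 3.1.0. No label or header states how the deposited barcodes were filtered. Members and gene lists were chosen with earlier results of these data known. The gates given in the report were applied to the counts, UMIs were summed over the cells of each group, and levels were scaled to 1000000 UMIs. The log2 ratio used 10 CPM added to both groups, with genes of at least 50 UMIs (list members at least 20) over both groups, and gate genes were left out of all counts. Intervals are exact 95% Poisson, Clopper-Pearson or conditional binomial ones, and 3 UMIs is the limit that a count of 0 allows. Thinning drew 2000 UMIs per cell without replacement.

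Named genes were the 15 with the highest and the 15 with the lowest ratio among genes with at least 100 CPM in the higher group, an interval end beyond 1.5-fold, UMIs in at least 10% of cells of the higher group and no cell with over 20% of its UMIs, leaving out mitochondrial, ribosomal protein, immunoglobulin, T cell receptor, haemoglobin and unnamed predicted genes. The same rule named 8 genes each way against PyMT-M, and 2 members by level and 2 by ratio were named from each list; further list members were named after their values were seen. The comparison within PyMT-M was added after the PyMT-N values were seen. Doublets were scored with Scrublet in scanpy 1.11.5 and kept. Promoter windows came from RefSeq on GRCm38.p6, and gene positions from GENCODE M21 on GRCm38, matched by gene ID. Python 3.11.15, numpy 2.4.6, scipy 1.17.1, pandas 2.3.3 and matplotlib 3.10.9 were used, and the ratio and interval code was tested on simulated data.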

Additional observations from a re-analysis of the deposited data

Results flagged for a closer look

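For 3 genes the Mmp12-positive cells differed from the negative cells in opposite directions in the 2 lines, at least 2-fold in each. The ratio of Retnla was -3.31 in PyMT-N and 1.89 in PyMT-M, a gap of -5.21 on the log2 scale. That of Fn1 was -1.99 in PyMT-N and 2.30 in PyMT-M, a gap of -4.28, and that of Ccl9 was -1.24 and 1.93, a gap of -3.16. The difference between the lines was not tested, since each line had 1 library. All Retnla UMIs of the PyMT-N positive cells came from 1 cell. Fn1 rested on 21 UMIs in the PyMT-N positive cells, 28.6% of them from 1 cell. Ccl9 was found in 36.1% of positive and 33.5% of negative PyMT-N cells. Over the processing settings described below, the PyMT-N ratio lay between -3.30 and -0.43 for Fn1 and between -2.31 and -0.83 for Ccl9. Both therefore fell within 2-fold in some settings.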

How the results depend on the processing

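Over 17 alternatives, 3 of them chosen after seeing the data, the 30 named genes kept the sign of their ratio in all 510 values. These genes were chosen by their ratio in the same cells, which the alternatives largely re-use, so the kept sign is no independent support. The count of 98 genes at least 2-fold higher was 60 in cells thinned to 2000 UMIs, where members were set at 1 UMI, shallower cells were left out and 2056 in place of 4939 genes were tested (191 lower), 59 without cells carrying UMIs of other cell types and 19 with 100 CPM added. The count of 194 lower genes was 88 and 311 with the members set at 1 or more and at 4 or more Mmp12 and Ctsk UMIs, 106 with the median ratio set to 0, 366 with levels averaged over cells, 297 with genes from 20 UMIs and 10 with 100 CPM added. Higher genes were 33.6% of both counts together, but 23.9% in the thinned cells, 57.3% with the median ratio set to 0, 44.7% from 1 UMI and 65.5% with 100 CPM added. The share of 10.8% was 16.1% from 1 UMI, 7.07% from 4 UMIs and 13.7% among cells of at least 4000 UMIs. With 100 CPM added the hypoxia median was 0.64 and the alternative-activation median -0.39. Socs1, of which 1 cell held 93.8% of the UMIs in the positive group, was at 1.45, against -0.52 from 4 UMIs and -0.60 from 4 per 10000 UMIs. The heat shock genes Hspa1a and Hspa1b were at 1.72 and 1.61, against -0.87 and -0.67 without cells carrying UMIs of the neutrophil list. In that setting Arg1 was at -2.04 in place of 0.78. For these values the cause was not tested. A planned comparison of Ctsk-carrying with Mmp12-carrying members was not run, as 1 member carried Ctsk. No paired analysis was possible because each line had 1 library, and no replicate could be left out. The number of cells, 61, limits the precision of genes at low levels.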
